A study of Mus musculus with 10 samples.

Results

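Polyamines are small, positively charged metabolites that bind nucleic acids and are needed for growth and translation. Putrescine is made from ornithine by ornithine decarboxylase (Odc1), and spermidine synthase (Srm) and spermine synthase (Sms) extend it to spermidine and spermine with aminopropyl groups that S-adenosylmethionine decarboxylase (Amd1) provides. Spermine oxidase (Smox), spermidine/spermine N1-acetyltransferase (Sat1) and polyamine oxidase (Paox) run the pathway backwards, antizymes (Oaz1 and Oaz2) bind ornithine decarboxylase and send it to the proteasome, and antizyme inhibitor (Azin1) captures antizymes. In skeletal muscle, Smox is known to be repressed in atrophy.

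These 10 genes were taken by symbol from the deposited expression table of 54232 genes, and all 10 were among the 14289 genes expressed highly enough to be tested. RNA was sequenced from the gastrocnemius, a calf muscle, of 5 homozygous desmin knock-out mice (genotype Des -/-) and 5 wild-type littermates (Des wt/wt), all 3 months old and of strain B6J.129Sv-Destm1Cba/Cscl, with no treatment named. The knock-out lacks desmin, the main intermediate filament protein of muscle, in every cell type, and whole muscle was used, so a change of RNA per cell and a change in the number of cells of a type cannot be told apart. The labels name the gastrocnemius, while the study's text elsewhere also names the neighbouring plantaris muscle as a source of the RNA. The methods describe the RNA of the 5 muscles of a genotype as pooled, whereas the table has a column per mouse, and each column was used as 1 replicate.

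The deposited values are regularized log (rlog) values, which the authors put on a log2 scale, corrected for library size and shrank towards the average of the gene, so that a difference of 1 is a 2-fold change on a scale that understates changes. Counts were not used here, and the depth is unknown. Des itself, on chromosome 1, had values of 11.76 to 11.89 in desmin knock-out and 16.10 to 17.74 in wild-type mice, and none of the 10 polyamine genes lies on that chromosome. The skeletal muscle genes Acta1 and Ckm had mean rlog values of 19.48 to 20.29 in the 2 genotypes. Wild-type mouse 3 stood apart from the other wild-type mice, with a mean correlation to them of 0.982 compared with 0.989 to 0.991, and a sum of linear values 1.48 times the median of all mice, so values that it changes most are also given without it.

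Of the 10 polyamine genes, 3 fell and 1 rose in desmin knock-out muscle at an adjusted p under 0.05 (limma, Benjamini-Hochberg over all 14289 tested genes). Amd1, Smox and Odc1 fell, Sat1 rose, and Srm, Sms, Paox, Oaz1, Oaz2 and Azin1 did not pass the test. Over all tested genes, 13.7% passed in either direction, 5.99% as lower and 7.7% as higher. The median absolute log2 difference was 0.356 over the 10 genes and 0.173 over all tested genes, while the median signed difference was -0.05 and -0.003. The 10 genes were chosen with results of these data known, so their count is a description.

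**Figure D1:**
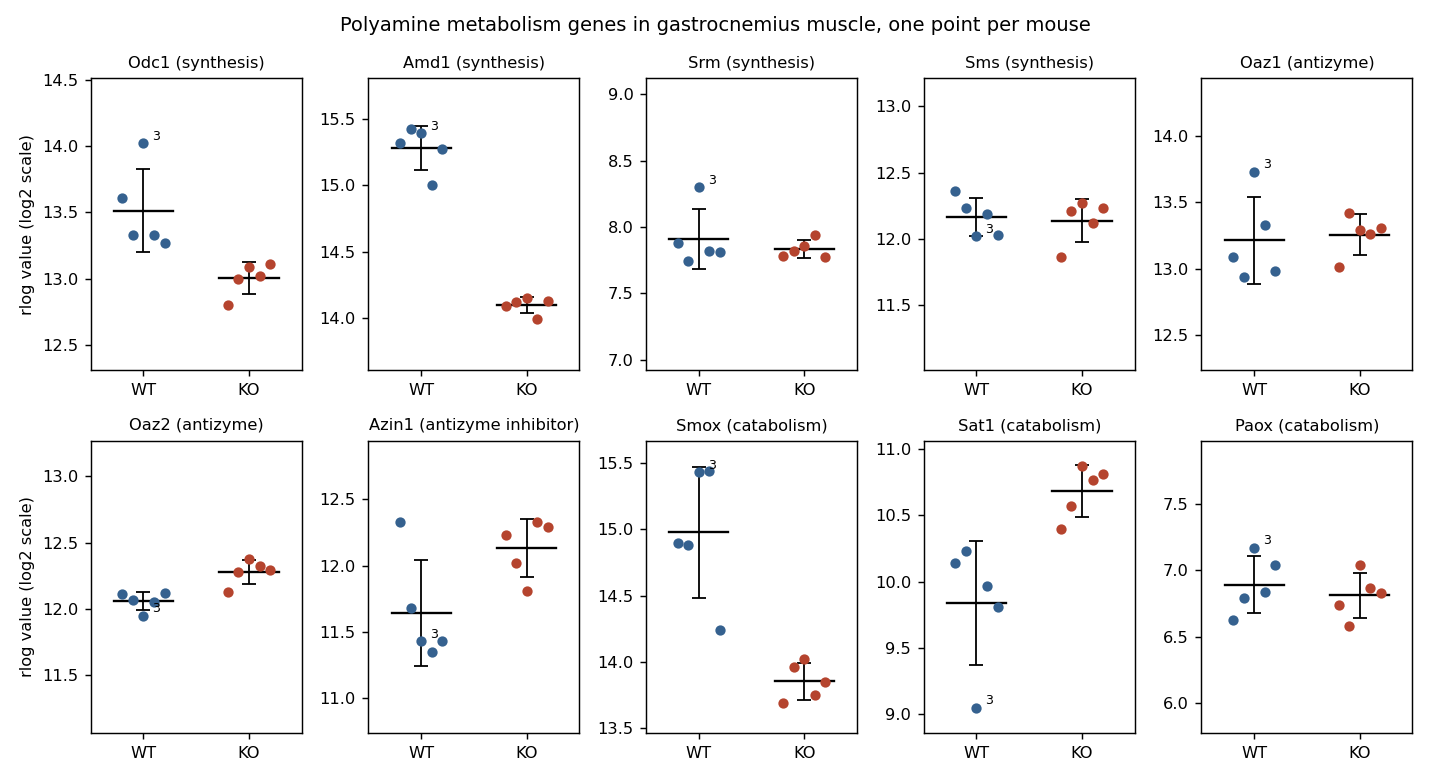
Rlog values (log2 scale, y axis) of the 10 polyamine genes in 5 wild-type (WT, blue) and 5 desmin knock-out (KO, red) mice, 1 point per mouse, with the mean (wide line) and SD (bars); every panel spans the same number of log2 units, and 3 marks wild-type mouse 3. Amd1, Smox and Odc1 were lower and Sat1 was higher in each knock-out mouse than in all wild-type mice.

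The regions around the transcription starts of the 4 genes that passed are shown because the results turn on these genes. The windows are from RefSeq on GRCm38.p6 and cover 250 bases before and 50 bases after a start, and 8 of the 10 genes matched the table, without Srm and Azin1. Capitals mark GC boxes (GGGCGG), in Smox also the core of the antioxidant response element (TGACNNNGC), and in Amd1 also the short upstream open reading frame described next, all searched on both strands except the last.
Amd1, chr10:40302139-40302438, reverse strand: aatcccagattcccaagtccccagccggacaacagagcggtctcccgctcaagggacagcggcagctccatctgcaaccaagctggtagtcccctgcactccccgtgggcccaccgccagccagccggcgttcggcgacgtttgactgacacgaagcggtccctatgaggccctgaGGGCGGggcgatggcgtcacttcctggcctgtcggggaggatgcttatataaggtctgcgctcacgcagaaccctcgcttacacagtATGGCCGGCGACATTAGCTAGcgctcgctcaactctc
Odc1, chr12:17544623-17544922, forward strand: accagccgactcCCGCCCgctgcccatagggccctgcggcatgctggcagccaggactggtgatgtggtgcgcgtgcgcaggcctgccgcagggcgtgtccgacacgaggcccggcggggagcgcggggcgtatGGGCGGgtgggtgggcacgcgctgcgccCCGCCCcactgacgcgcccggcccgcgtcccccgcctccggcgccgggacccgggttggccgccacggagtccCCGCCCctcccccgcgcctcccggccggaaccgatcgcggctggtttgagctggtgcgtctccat
Smox, chr2:131491612-131491911, forward strand: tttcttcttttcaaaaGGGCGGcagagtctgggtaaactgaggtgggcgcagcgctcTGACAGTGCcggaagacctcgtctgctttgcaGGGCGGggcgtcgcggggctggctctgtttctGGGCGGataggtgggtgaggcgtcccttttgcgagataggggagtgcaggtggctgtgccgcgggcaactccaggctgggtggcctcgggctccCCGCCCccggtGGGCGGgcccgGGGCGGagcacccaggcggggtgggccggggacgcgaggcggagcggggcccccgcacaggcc
Sat1, chrX:155216400-155216699, reverse strand: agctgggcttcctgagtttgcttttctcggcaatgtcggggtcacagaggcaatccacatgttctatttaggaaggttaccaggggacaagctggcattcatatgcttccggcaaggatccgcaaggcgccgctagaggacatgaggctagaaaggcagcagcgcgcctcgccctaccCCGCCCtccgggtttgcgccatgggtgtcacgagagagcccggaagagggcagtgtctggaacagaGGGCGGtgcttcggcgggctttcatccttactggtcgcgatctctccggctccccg

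All 4 windows held a GC box, with 6 in Smox, 4 in Odc1, 2 in Sat1 and 1 in Amd1, and so did 7 of the 8 genes with a window, against 35.7% of all 32851 windows in the table. The E-box bound by Myc and Max (CACGTG) was found in Sms alone of the 8 genes and in 7.15% of all windows. The exact TATA motif (TATAAA) was found in Oaz1 and in 13.6% of all windows, and CCAAT in Oaz1 and Sms and in 37.4%. Variants of the TATA motif were not searched, such as the letters tatataag in the Amd1 window. The antioxidant response element core stood in Smox and Oaz1 and in 12.4% of all windows. Where a gene had several windows, a match in any of them was counted, whereas the shares of all windows are per window. The 2 are therefore not like for like, and these are matches of letters in short windows. The windows of Sat1, Amd1, Smox and Odc1 were 60.3%, 63%, 71% and 78% G or C. The base composition of all windows was not compared. Sequence beyond the windows was not searched, so a motif not found here may still stand elsewhere in a gene. The genes that fell and the gene that rose shared the GC box.

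Amd1 encodes the enzyme that commits S-adenosylmethionine to spermidine and spermine synthesis, and its mRNA leader carries a small upstream open reading frame at which polyamines are known to hold ribosomes back. The frame lies on chromosome 10 from 40302155 to 40302175, 14 bases into the transcript, upstream of the annotated start codon at 40301858, on the reverse strand of GRCm38, and has 6 codons before its stop. The same frame is present in Amd2, an annotated copy on the same chromosome, where it runs from 35711860 to 35711880. Capitals mark the frame.
Amd1 upstream frame: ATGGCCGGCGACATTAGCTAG
Amd2 upstream frame: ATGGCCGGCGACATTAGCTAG

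Amd1 (ENSMUSG00000075232, chromosome 10, 40287458 to 40302186) had rlog values of 14.09, 14.12, 14.15, 13.99 and 14.13 in knock-out mice 1 to 5 and 15.32, 15.42, 15.39, 15.0 and 15.27 in wild-type mice 1 to 5. The genotypes were 0.85 apart at their nearest values, and the spread within each was small. The means were 14.09 ± 0.06 (SD, n = 5) and 15.28 ± 0.17 (SD, n = 5), so that the log2 difference was -1.19 (SE 0.10, limma adjusted p = 6.3e-06), or 0.439 times the wild-type level on the rlog scale. By size it had rank 50 among the 7209 tested genes whose mean was lower in the knock-out mice. The difference stayed between -1.27 and -1.07 in all 17 other settings and passed the test in each.

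Of the copies of Amd1, Amd2 and Amd-ps3 also fell. Amd2 (ENSMUSG00000063953) had values of 6.27 to 6.77 in desmin knock-out and 7.44 to 7.71 in wild-type mice, and the difference on the log2 scale was -1.0 (SE 0.12, limma adjusted p = 9.5e-05). The pseudogene Amd-ps3 differed by -1.57 on the log2 scale (SE 0.20, limma adjusted p = 1.6e-04), and Amd-ps1 and Amd-ps4, which were too low to be tested, had genotypes that did not overlap, with values of 0.89 to 0.97 in desmin knock-out and 1.02 to 1.17 in wild-type mice for Amd-ps1 and of 0.97 to 1.06 and 1.1 to 1.33 for Amd-ps4. Amd-ps5 did not pass (limma adjusted p = 0.127), although its knock-out values of 2.29 to 2.91 lay below all wild-type values, by 0.03 at the nearest. Amd-ps6, also too low to be tested, had values of -2.07 to -2.04 in all mice, with genotypes that overlapped. Of all stretches of 50 bases in Amd1 transcripts, 76.7% were also present in Amd2, and 85.7% of the stretches of Amd2 and 94.8% of those of Amd-ps3 were present in Amd1. Reads from the shared stretches may therefore have been exchanged or left out, since the handling of reads that match several places is not known here. Within these stretches separate changes of Amd1 and its copies cannot be told apart. Reads from the other stretches were not examined on their own. Amd1 was by far the most abundant of them, with a wild-type mean of 15.28 compared with 7.52 for Amd2, whose exon length of 3218 bases is close to the 3542 bases of Amd1.

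**Figure D2:**
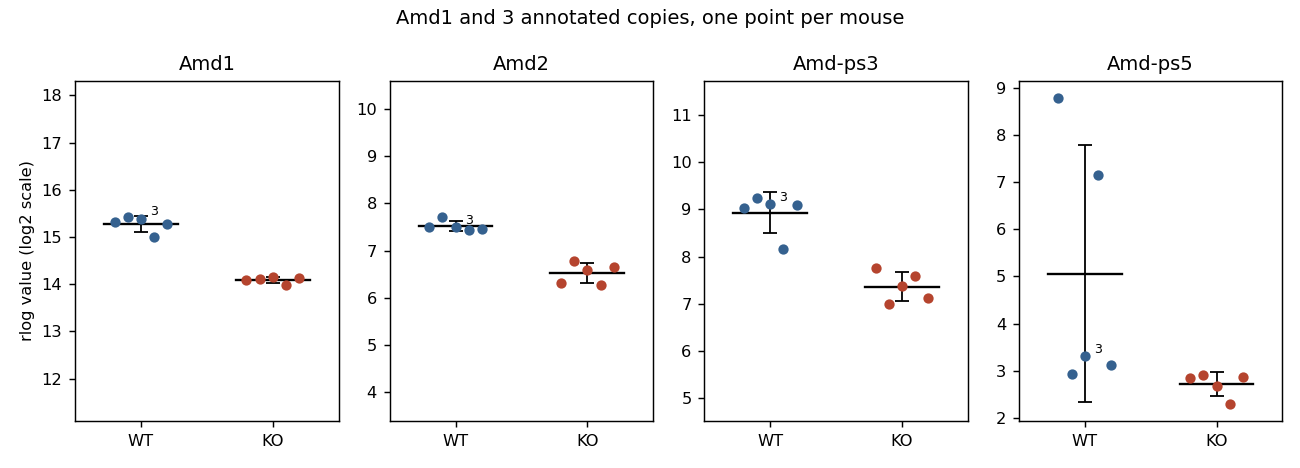
Rlog values (log2 scale, y axis) of Amd1, its copy Amd2 and the pseudogenes Amd-ps3 and Amd-ps5 by mouse in wild-type (WT, blue) and desmin knock-out (KO, red) muscle, with mean and SD; every panel spans the same number of log2 units. Amd1, Amd2, Amd-ps3 and Amd-ps5 were lower in each knock-out mouse than in all wild-type mice, for Amd-ps5 by only 0.03 at the nearest values. Amd-ps5 was high in wild-type mice 1 and 4 and between 2.29 and 3.31 in the other 8 mice.

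Odc1 (ENSMUSG00000011179, chromosome 12, 17544794 to 17551505), which makes putrescine, had rlog values of 12.80, 13.00, 13.09, 13.02 and 13.11 in knock-out mice and 13.61, 13.33, 14.02, 13.33 and 13.27 in wild-type mice. The genotypes did not overlap, with the lowest wild-type value 0.16 above the highest knock-out value, and wild-type mouse 3 was the highest. The means were 13.01 ± 0.12 (SD, n = 5) and 13.51 ± 0.31 (SD, n = 5), and the difference on the log2 scale was -0.51 (SE 0.14, limma adjusted p = 0.0265). With wild-type mouse 3 left out, the log2 difference came to -0.38 (limma adjusted p = 0.00937). The call was lost without knock-out mouse 1 (adjusted p = 0.0742), 2 (0.0625) or 4 (0.0587), without wild-type mouse 1 (0.0534) and with no expression limit (0.0711; all limma), with adjusted p-values of 0.00146 to 0.0742 in all, while the difference stayed negative in all 17 other settings.

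**Figure D3:**
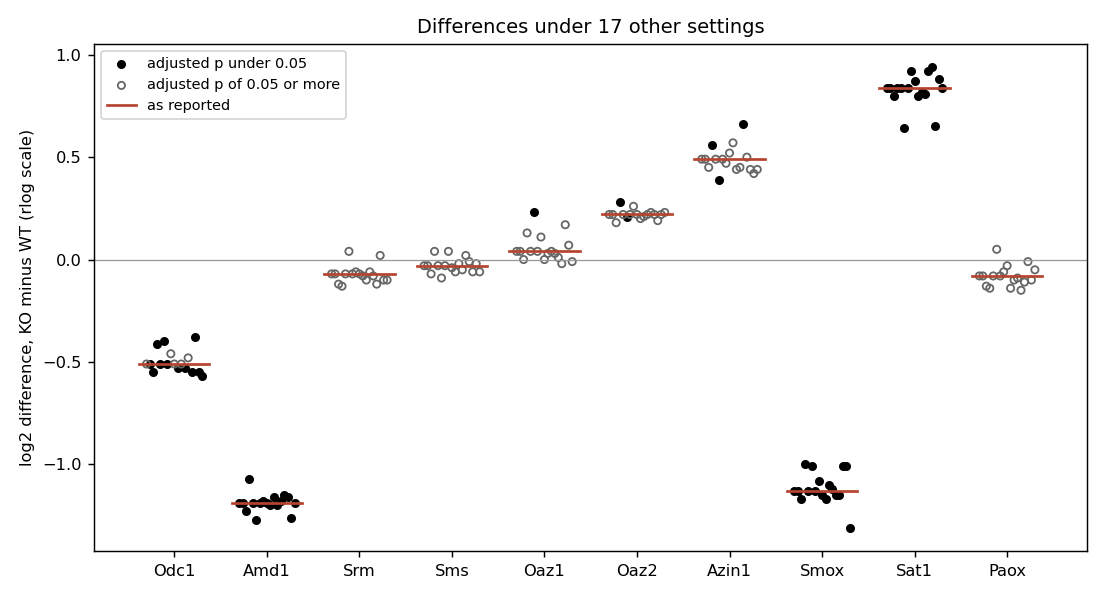
Log2 difference between desmin knock-out and wild-type muscle on the rlog scale (y axis) of the 10 polyamine genes as reported and under 17 other settings of the processing, including those without 1 mouse. Amd1 (-1.27 to -1.07) and Smox (-1.31 to -1.0) stayed far below 0 and Sat1 (0.64 to 0.94) far above it, whereas Srm, Sms, Paox and Oaz1 crossed 0.

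Srm and Sms, the aminopropyl transferases that consume the product of Amd1, did not pass. Srm (ENSMUSG00000006442, chromosome 4, 148591503 to 148594993) had values of 7.77 to 7.94 in desmin knock-out and 7.74 to 8.30 in wild-type mice, a log2 difference of -0.07 (95% interval -0.32 to 0.17) that was 0.02 without wild-type mouse 3. Sms (ENSMUSG00000071708, chromosome X, 157443855 to 157492287) had values of 11.86 to 12.27 and 12.02 to 12.36, a log2 difference of -0.03 (95% interval -0.25 to 0.20). For both genes the values of the genotypes were interleaved, and neither interval reaches the log2 difference of Amd1 or Odc1. A pseudogene of Sms, Sms-ps, shares all of its 50-base stretches with Sms and had a wild-type mean of 4.77, against 12.16 for Sms.

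Among the catabolic genes, Smox fell and Sat1 rose. Smox (ENSMUSG00000027333, chromosome 2, 131491496 to 131525922), which turns spermine back into spermidine, had rlog values of 13.69, 13.96, 14.02, 13.75 and 13.85 in knock-out mice and 14.90, 14.88, 15.43, 15.44 and 14.24 in wild-type mice. Wild-type mice were spread out, from mouse 5 just above the knock-out mice up to mice 3 and 4, whereas the knock-out mice lay close together. The means were 13.85 ± 0.14 (SD, n = 5) and 14.98 ± 0.49 (SD, n = 5), and the difference on the log2 scale was -1.13 (SE 0.20, limma adjusted p = 0.00163), or 0.458 times the wild-type level on the rlog scale. The difference lay between -1.31 and -1.0 and passed in all 17 other settings.

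Sat1 (ENSMUSG00000025283, chromosome X, 155213132 to 155216449), which acetylates spermidine and spermine for export or oxidation, had rlog values of 10.40, 10.57, 10.87, 10.77 and 10.81 in knock-out mice and 10.14, 10.23, 9.05, 9.97 and 9.81 in wild-type mice. All knock-out values lay above the wild-type values, by 0.16 at the nearest, and wild-type mouse 3 was by far the lowest. The means were 10.69 ± 0.20 (SD, n = 5) and 9.84 ± 0.47 (SD, n = 5), and the difference on the log2 scale was 0.84 (SE 0.19, limma adjusted p = 0.0092), or 1.79 times the wild-type level on the rlog scale. With wild-type mouse 3 left out, the log2 difference came to 0.65 (limma adjusted p = 0.00135), and the gene passed in all 17 other settings.

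Paox (ENSMUSG00000025464, chromosome 7, 140115799 to 140137224), which oxidizes the acetylated polyamines that Sat1 makes, had values of 6.58 to 7.04 in desmin knock-out and 6.63 to 7.17 in wild-type mice. Its log2 difference was -0.08 (95% interval -0.36 to 0.19), and it did not pass. Exons of Paox overlap those of Echs1 on the opposite strand, and reads from there cannot be assigned, since the sources used here do not give the strand setting of the counting.

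Of the antizymes, Oaz1 (ENSMUSG00000035242, chromosome 10, 80826656 to 80829290) had values of 13.01 to 13.42 in desmin knock-out and 12.94 to 13.73 in wild-type mice, a log2 difference of 0.04 (95% interval -0.27 to 0.36). Its pseudogene Oaz1-ps, which shares 92.1% of its 50-base stretches with Oaz1, did not pass either (log2 difference -0.17, limma adjusted p = 0.493). Oaz2 (ENSMUSG00000040652, chromosome 9, 65668001 to 65690300) had 12.13, 12.28, 12.38, 12.32 and 12.29 in knock-out mice and 12.11, 12.07, 11.95, 12.05 and 12.12 in wild-type mice. The lowest knock-out value of Oaz2 exceeded the highest wild-type value by only 0.01, and the log2 difference of 0.22 (standard error 0.08) did not pass over all tested genes (limma adjusted p = 0.0943; 0.0105 to 0.218 in the other settings). Over all tested genes, 14.4% had genotypes that did not overlap (7.45% with the knock-out mice above and 6.97% with them below), as Amd1, Odc1, Smox, Sat1 and Oaz2 had here.

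Azin1 (ENSMUSG00000037458, chromosome 15, 38487427 to 38519266), which frees ornithine decarboxylase from antizyme, had rlog values of 12.23, 12.02, 11.81, 12.33 and 12.29 in knock-out mice and 12.33, 11.68, 11.43, 11.35 and 11.43 in wild-type mice. Wild-type mouse 1 lay as high as the highest knock-out mouse, and the other 4 wild-type mice lay below all knock-out mice. The log2 difference was 0.49 (standard error 0.17) and did not pass (limma adjusted p = 0.08). Without wild-type mouse 1 it was 0.66 and passed (limma adjusted p = 0.00343), within a range of 0.00343 to 0.173 over all other settings. Exons of Azin1 overlap the antisense gene Gm49077, whose values of 2.19 to 2.95 were far below those of Azin1.

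**Figure D4:**
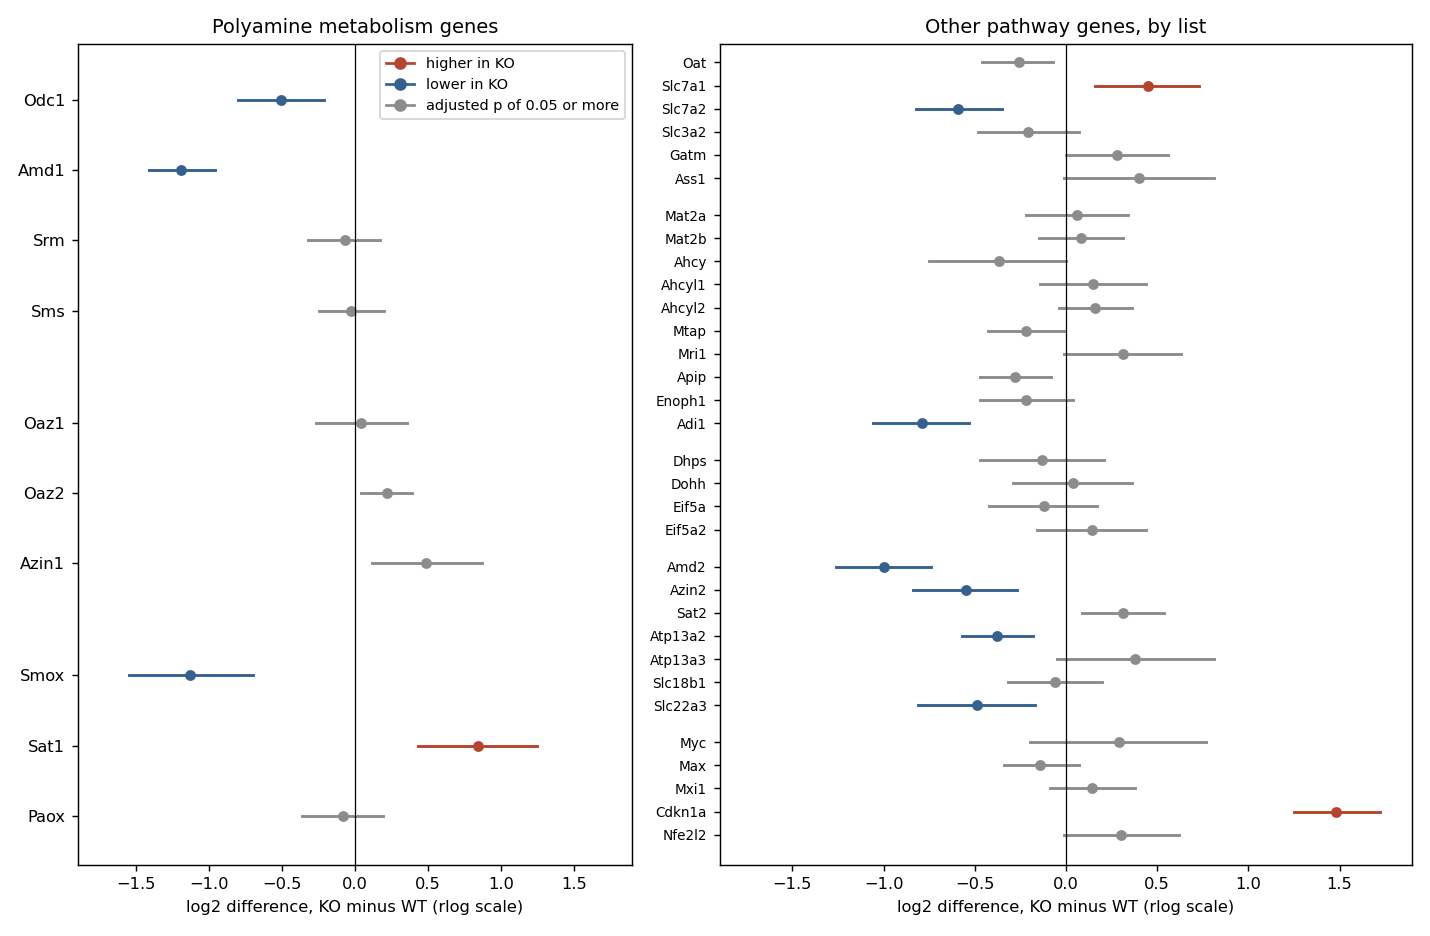
Log2 difference between desmin knock-out and wild-type muscle on the rlog scale (x axis, points) with the 95% interval from limma (lines) for the 10 polyamine genes in the left panel and for other tested genes of the pathway, in 5 lists, in the right panel; red and blue mark genes that were higher or lower at an adjusted p under 0.05. Amd1 (-1.19) and Smox (-1.13) had the largest falls of all genes drawn, and Cdkn1a (1.48) the largest rise.

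Levels of different genes were compared per exon length, as the rlog value minus log2 of the exon length in kb. The exon length joins all annotated exons of a gene and can exceed the length of the transcripts present, which were not examined. For Oaz1 it was 2558 bases, nearly the whole gene from 80826656 to 80829290, so its level may be understated. The order of the genes therefore depends on these lengths, whereas the difference between genotypes for a gene does not. In wild-type muscle Amd1 had the highest length-scaled level (13.46 ± 0.17, SD, n = 5), followed by Smox (13.01 ± 0.49), Oaz1 (11.86 ± 0.32), Odc1 (11.75 ± 0.31), Oaz2 (10.48 ± 0.07), Sms (9.58 ± 0.14), Azin1 (9.0 ± 0.40), Sat1 (8.37 ± 0.47), Srm (7.23 ± 0.22) and Paox (4.6 ± 0.21). The ranges of 5 mice overlapped between neighbours for Amd1 and Smox, Smox and Oaz1, Oaz1 and Odc1, Sms and Azin1, Azin1 and Sat1, and Sat1 and Srm, so the ranges alone do not separate them. The genes were measured in the same mice, which ranges across mice do not take into account. In desmin knock-out muscle Amd1 was still highest, at 12.27 ± 0.06 (SD, n = 5). With these exon lengths Oaz1 (11.90 ± 0.15) and Smox (11.89 ± 0.14) were level with each other.

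**Figure D5:**
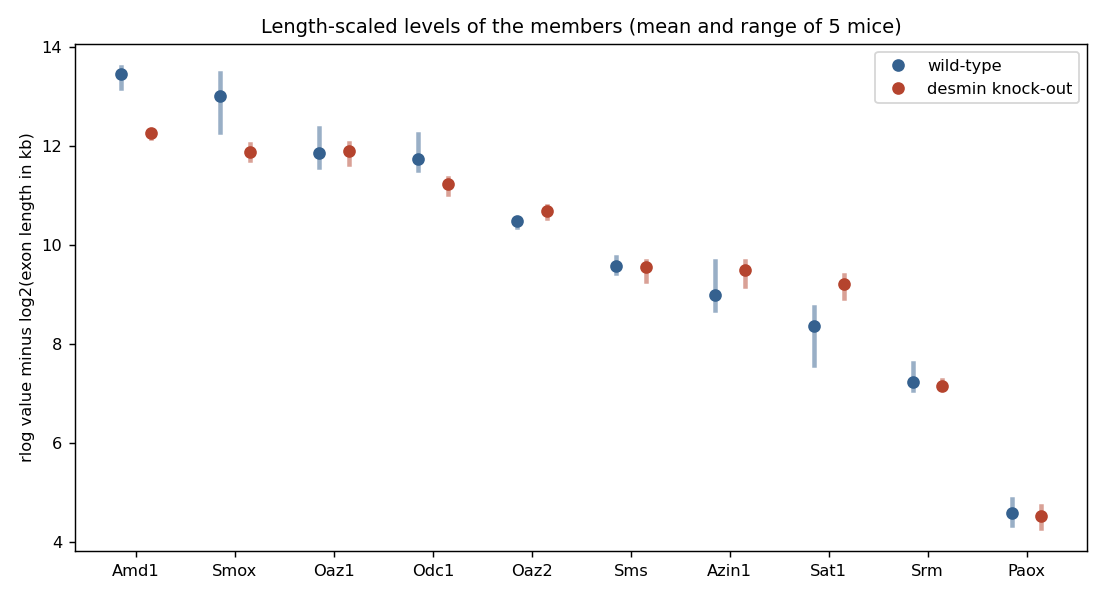
Length-scaled level (rlog value minus log2 of the exon length in kb, y axis) of the 10 polyamine genes in wild-type (blue) and desmin knock-out (red) muscle, ordered by the wild-type mean; points are means and bars the range of 5 mice. Amd1 moved from 13.46 to 12.27 and Smox from 13.01 to 11.89, and Sat1 moved from 8.37 to 9.21.

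Differences between 2 of these genes were also taken within each mouse. The length-scaled level of Odc1 minus that of Oaz1, enzyme against antizyme, was -0.83 to -0.60 in desmin knock-out and -0.41 to 0.11 in wild-type mice. Smox minus Sat1, the 2 catabolic genes that moved in opposite directions, was 2.49 to 2.89 in desmin knock-out and 3.94 to 5.89 in wild-type mice. The exon lengths shift a pair equally in all mice, so the genotypes can be compared, but the distance from 0 depends on these lengths. Both pairs were chosen after the values were seen and are a description.

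Beyond the 10 genes, 43 genes that supply, use, carry or regulate the pathway were listed, and 33 of them were tested. Of these, 2 rose and 6 fell at an adjusted p under 0.05 (limma), against 13.7% of all tested genes. In the list of substrate supply and transport (6 of 9 tested), the cationic amino acid transporters went in opposite directions. Slc7a2, which carries arginine and ornithine, fell from 11.02 ± 0.17 to 10.43 ± 0.17 (SD, n = 5 each; log2 difference -0.59, SE 0.11, limma adjusted p = 0.00246), with all 5 knock-out mice below the wild-type mice. Slc7a1, a second carrier of these amino acids, rose by 0.45 (SE 0.13, limma adjusted p = 0.043), but the call was lost in 14 of 17 other settings, 9 of them with 1 mouse left out. Arginase genes Arg1 and Arg2, which make ornithine, had values below 0 in every mouse and were not tested.

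In the list of the S-adenosylmethionine and methylthioadenosine cycle, 1 of 10 tested genes passed. Adi1, a dioxygenase of the methionine salvage pathway, which recycles the methylthioadenosine released by Srm and Sms, fell, with values of 10.83 to 11.13 in desmin knock-out and 11.62 to 12.26 in wild-type mice (log2 difference -0.79, SE 0.12, limma adjusted p = 6.8e-04). Apip and Enoph1, which act before it in the same salvage route, had log2 differences of -0.28 and -0.22 that did not pass (limma adjusted p = 0.0643 and 0.262), and the genotypes overlapped for Enoph1 but not for Apip. Mtap (-0.22) and Mri1 (0.31), also of this route, had means that moved in opposite directions. Neither passed (limma adjusted p = 0.16 and 0.198), and the genotypes overlapped for both. Mat2a, which makes S-adenosylmethionine in muscle, had a log2 difference of 0.06 (95% interval -0.22 to 0.34). None of the 4 hypusine genes (Dhps, Dohh, Eif5a and Eif5a2), through which spermidine modifies a translation factor, passed in limma, and none had an unadjusted p under 0.05. The smallest p among them was that of Eif5a2 (log2 difference 0.14, limma adjusted p = 0.561).

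Among other polyamine enzymes and transporters, 4 of 7 tested genes fell and none rose, where 5.99% of all tested genes fell. Amd2 was one of these, and 85.7% of its 50-base stretches are shared with Amd1. The others were Azin2 (log2 difference -0.55, standard error 0.13, adjusted p = 0.0134), a second antizyme inhibitor, Atp13a2 (-0.38, standard error 0.09, adjusted p = 0.0135), a lysosomal polyamine exporter, and Slc22a3 (-0.49, standard error 0.15, adjusted p = 0.0433; all limma), an organic cation transporter. The call of Slc22a3 was lost in 10 of 16 other settings, 8 of them with 1 mouse left out, and those of Azin2 and Atp13a2 in none of 17. Azin2 and Azin1 thus had means that moved in opposite directions, of which only that of Azin2 passed.

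Of the upstream regulators, Cdkn1a passed. Cdkn1a encodes the cell cycle inhibitor p21, which is known to repress Smox in muscle, and its rlog values were 11.65, 11.40, 11.66, 11.34 and 11.17 in knock-out and 10.11, 9.90, 10.03, 9.85 and 9.90 in wild-type mice. The genotypes were 1.06 apart at their nearest values, and knock-out minus wild type came to 1.48 on the log2 scale (SE 0.11, limma adjusted p = 1.5e-06). Myc, a known activator of Odc1, had values of 6.95 to 7.29 in desmin knock-out and 5.97 to 7.47 in wild-type mice and did not pass (log2 difference 0.29, limma adjusted p = 0.437), and without wild-type mouse 3, its lowest value, the difference was 0.06. Mxi1, an antagonist of Myc, had a log2 difference of 0.14 that did not pass (limma adjusted p = 0.433), and it passed without wild-type mouse 3 (0.24, limma adjusted p = 0.0223) and with sample weights (0.20, limma adjusted p = 0.0197), within a range of 0.0197 to 0.629 over all other settings. Max (-0.14) and Nfe2l2 (0.30) did not pass either.

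Over the 10 mice, the tested genes outside these lists whose values were most like those of Amd1 were Tph1 (Pearson's r = 0.995), Dglucy (0.992) and Themis3 (0.985). All 3 were lower in desmin knock-out muscle, with log2 differences of -2.72, -1.62 and -2.42, so the likeness contains the difference between the genotypes. Among the polyamine genes, Smox was most like Amd1 (r = 0.835), followed by Odc1 (0.798), and Oaz2 (-0.826) and Sat1 (-0.795) ran opposite to it. The points share libraries and the split by genotype, and the correlations are descriptions.

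Levels of cell type markers moved with the genotype as well. The log2 of the summed level of 9 skeletal muscle genes was 22.07 to 22.27 in desmin knock-out and 22.29 to 23.22 in wild-type mice (up to 22.65 without wild-type mouse 3), with 1 gene higher (Myh2) and 2 lower (Myh4 and Actn3) at an adjusted p under 0.05 (limma), and their part in the falls of Amd1, Smox and Odc1 was not tested. Of 5 endothelial genes 3 were lower, of 5 erythroid genes 2 were lower, and of 6 fibroblast genes 3 were higher (limma), where 5.99% of all tested genes were lower and 7.7% higher. For genes of satellite cells and regenerating fibers, 4 of 6 were higher and 1 was lower, with summed levels of 10.90 to 11.59 in desmin knock-out and 10.21 to 10.63 in wild-type mice, and their part in these results was not tested. Of 8 macrophage genes none passed in limma and none had an unadjusted p under 0.05, with summed levels of 11.18 to 11.67 in desmin knock-out and 11.18 to 11.55 in wild-type mice. The part of any of these cell types in the rise of Sat1 was not tested. None of 4 adipocyte and 5 Schwann cell genes passed in limma or had an unadjusted p under 0.05. No marker of these lists was at 0 in all mice.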

How the data were processed

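Gastrocnemius RNA of 5 desmin knock-out and 5 wild-type mice had been sequenced, and the submitters' processing notes name cutadapt 2.5, STAR 2.5.4a, Subread 1.6.1 and DESeq2. The deposited table holds 1 column of log2-scale rlog values per mouse, which the authors computed from gene counts. Such values are scaled for library size and shrunken towards each gene's mean, so that low genes and single deviating mice move less than in counts. Depth is unknown and no interval for counting error could be given. Strand and rlog settings are not given in the sources used here. Columns were assigned to genotypes by name.

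Of 54232 genes, 26079 were at 0 in all mice, and 14289 reached a mean rlog value of log2(10), and these were compared by limma 3.58.1 (R 4.3.3) with a mean-variance trend, 2-sided, without covariates, with Benjamini-Hochberg adjustment over all tested genes and a threshold of 0.05. Whether mice came from separate litters is not given, and p-values measure the spread between the columns, each taken as 1 mouse. If the RNA was pooled, as the methods describe, the columns would not be separate mice. The p-values would then not measure the spread between mice. On simulated data (14289 genes, 100 changed at each size), 93% of changes of size 1 and 100% of size 1.5 were recovered, and 7.66% of 209 calls were false.

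Named genes were Des, the 10 polyamine genes, the 4 best adjusted p-values under 0.05 of each pathway list (otherwise the 1 with the smallest p), all tested upstream regulators, the 3 tested genes most correlated with Amd1, and annotated copies. One item under this rule is not reported here. Mat2a, Mtap, Mri1, Apip, Enoph1, Arg1, Arg2 and marker genes were named after their values were seen. The members and lists were chosen with earlier results of these data known. Alternatives were sample weights, quantile normalization, median centring, a variance prior without trend, no expression limit or one of log2(50), the replicate number as a block, an adjusted p under 0.01, and leaving out each mouse. Gene positions are from GENCODE M21 on GRCm38.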

Additional observations from a re-analysis of the deposited data

Results flagged for a closer look

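Within each genotype, the 32 named genes gave 64 groups of 5 mice, and in 10 of them the highest or lowest mouse stood apart from the other 4 by more than Dixon's 95% critical value, where chance gives about 3.2 (1 in 20). Wild-type mouse 3 was the one apart in 4 groups, for Des (17.74), Srm (8.3), Adi1 (12.26) and Mxi1 (11.44). Srm was the only one of the 10 polyamine genes among them. The others were Amd2 in wild-type mouse 2 (7.71), Atp13a2 in wild-type mouse 4 (10.13), Amd-ps3 in wild-type mouse 4 (8.17), Themis3 in knock-out mouse 4 (3.53), Oaz1-ps in knock-out mouse 1 (5.19) and Sms-ps in knock-out mouse 5 (4.77), all as rlog values.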

How the results depend on the processing

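Amd1, Smox and Sat1 kept their direction and passed in all 17 other settings. Of 170 values of the 10 polyamine genes under other settings, 151 kept direction and side of the threshold, 5 lost the call (all Odc1), 6 gained it (Oaz2, Azin1 and Oaz1) and 8 changed sign. The number that passed was 4, and 3 to 4 with 1 mouse left out. With sample weights it was 7, after quantile normalization 6, and with no expression limit or at an adjusted p under 0.01 it was 3. The number higher was 1, 3 after quantile normalization, 4 with sample weights, and 1 to 2 with 1 mouse left out (2 without wild-type mouse 1). Among the 33 pathway genes, 8 passed, 15 with sample weights and 6 to 12 with 1 mouse left out (12 without wild-type mouse 3). Of these, 2 were higher, 1 with no expression limit, median centring or quantile normalization, 6 with sample weights, and 1 to 4 with 1 mouse left out. Over all tested genes, 1956 passed (1100 higher, 856 lower), 4220 with sample weights (2093 higher, 2127 lower), and 1400 to 2496 with 1 mouse left out (560 to 1161 lower, with 560 without knock-out mouse 5). Sample weights gave wild-type mouse 3 a weight of 0.1. The cause of these changes was not tested.

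Signs changed only for genes that did not pass, whose reported differences were -0.17 (Oaz1-ps) to 0.29 (Myc). They changed with sample weights for Srm (0.04), Paox (0.05), Eif5a2 (-0.03), Myc (-0.07) and Oaz1-ps (0.03), after quantile normalization for Sms (0.04), without knock-out mouse 1 for Sms (0.04), without wild-type mouse 1 for Sms (0.02), without wild-type mouse 3 for Srm (0.02), and without wild-type mouse 2 or 5 for Oaz1 (-0.02 and -0.01). With 1 mouse left out, the differences ranged from -0.12 to 0.02 for Srm, from -0.06 to 0.04 for Sms and from -0.02 to 0.17 for Oaz1.

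With the replicate number as a block, 4 polyamine genes, 6 pathway genes (1 higher) and 1579 of all tested genes passed. The correlations of same-numbered mice were -0.219 to 0.0673, and 0 of 10 mice correlated best with the mouse of their own number. With only 5 mice per genotype, these values cannot show whether the numbers pair the mice.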

Other observations

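Amd-ps5, a pseudogene of Amd1 on chromosome 6, had rlog values of 8.79 in wild-type mouse 1 and 7.15 in wild-type mouse 4, and 2.29 to 3.31 in the other 8 mice, which include wild-type mice 2, 3 and 5. Its mean difference did not pass (log2 difference -2.34, standard error 0.95, adjusted p = 0.127 from limma). All knock-out values lay below the wild-type values, by 0.03 at the nearest. Of the 50-base stretches of Amd-ps5, 10.7% were also present in Amd1, compared with 94.8% for Amd-ps3. Amd1 itself had 15.32 and 15.0 in wild-type mice 1 and 4, within the range of the other wild-type mice for mouse 1 and below it for mouse 4.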
